A study of Mus musculus with 6 samples.

Results

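Mice carry Plac9, a gene for a small secreted protein, in 3 copies, named Plac9a, Gm9780 and Plac9b, and the level of these copies was described in gastrocnemius muscle with and without the long non-coding RNA lnc-ORA. The copies are 3 of the 11815 genes in the authors' table, and they were chosen by name, with their levels in both genotypes already known. The difference between genotypes is therefore given for them as a description, with no test. The knockout (KO) mice lacked 5147 bp of genomic DNA that hold the whole lnc-ORA transcript, removed by CRISPR with a pair of guide RNAs on a C57BL/6 background. The wild-type (WT) mice had the same background, and muscle of both was taken at 15 weeks of age. There were 3 KO libraries (replicates 1, 2 and 3) and 3 WT libraries (replicates 2, 3 and 4). The founders of the KO mice were bred to wild-type mice. The labels give neither the number of founder lines nor the zygosity and sex of the animals. Whether the libraries of a group come from separate animals is not said either, so p-values reflect the spread among the 3 libraries of a group, which may be technical. The study set out to learn how lnc-ORA bears on muscle fibre type.

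Plac9 stands for placenta-specific 9. In surveys of mouse tissues its RNA is found mainly in fibroblasts and other stromal cells, which lie between the muscle fibres and make the matrix. Muscle fibres give most of the RNA of a whole muscle, so a stromal transcript is measured there as a small part of the whole. In such bulk samples, more cells of a type and more RNA per cell cannot be told apart.

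The 3 copies lie on the minus strand of chromosome 14. In GENCODE M21, on build GRCm38, Plac9a (ENSMUSG00000095304.9) spans positions 25887506 to 25903100, Gm9780 (ENSMUSG00000094800.8) 26027282 to 26042711 and Plac9b (ENSMUSG00000072674.10) 26167405 to 26182480. The submitters' processing notes name another build, GRCm39, so these positions only place the copies and their neighbours. The second exons of Plac9a and Gm9780 are 139.8 kb apart and those of Gm9780 and Plac9b 139.6 kb. Each full-length transcript has 4 exons, and the introns are nearly the same length, with a first intron of 11930 bases in Plac9a and 11928 bases in both other copies. A coding part of 324 bases runs from the first exon to the fourth, and it is identical in the 3 copies, with 0 differences from Plac9a in either of the others.

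The second exon is shown because it lies within all 9 annotated transcripts of the 3 genes and is the same in each. In Plac9a it is chr14:25890761-25890855, minus strand, GRCm38, and it is coding throughout in the full-length transcript.
Second exon: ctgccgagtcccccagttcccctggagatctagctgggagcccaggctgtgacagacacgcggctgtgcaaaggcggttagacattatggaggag

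The identity extends beyond the coding part. For each gene the longest transcript with at least 3 coding exons and a coding part that starts with ATG was compared. Those of Gm9780 (1394 bases) and Plac9b (1040 bases) are both contained, base for base, in that of Plac9a (1555 bases). Over all their transcripts, 99.4% of the 50-base stretches of Gm9780 and 96.6% of those of Plac9b also occur in Plac9a. The compared transcripts differ at their ends as annotated. The first exon is 315 bases in Plac9a and Plac9b and 160 in Gm9780, and the last exon is 1021 bases in Plac9a, 1015 in Gm9780 and 506 in Plac9b. No 50-base stretch of the 3 copies occurs on either strand in an annotated transcript of any other gene (0 genes), so reads of these exons can be shared among the copies but not, at that length, with another annotated gene. The sources used here give neither the read length nor the handling of reads that match several places. Given the shared exons, the level of a single copy is uncertain, and the sum over the copies is the firmer value.

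The windows around the RefSeq transcript starts are shown because the copies also share sequence there. Each runs from 250 bases before the start in RefSeq to 50 after it (GRCm38.p6, minus strand), all 3 copies matched by symbol, and the capitals mark a run of 222 bases common to all of them. The windows of Gm9780 (chr14:26042688-26042987) and Plac9b (chr14:26182302-26182601) are identical, with 0 differences. The window of Plac9a (chr14:25902844-25903143) begins where the common run begins, at base 79 of the other windows, because its RefSeq start is set further downstream. The GENCODE M21 transcripts compared above start elsewhere, at 25903100 in Plac9a, 26182480 in Plac9b and 26042711 in Gm9780. Most of the common run thus lies inside the annotated first exon of Plac9a and Plac9b, and a small part of it in Gm9780. Which starts are used in muscle was not tested.
Plac9a: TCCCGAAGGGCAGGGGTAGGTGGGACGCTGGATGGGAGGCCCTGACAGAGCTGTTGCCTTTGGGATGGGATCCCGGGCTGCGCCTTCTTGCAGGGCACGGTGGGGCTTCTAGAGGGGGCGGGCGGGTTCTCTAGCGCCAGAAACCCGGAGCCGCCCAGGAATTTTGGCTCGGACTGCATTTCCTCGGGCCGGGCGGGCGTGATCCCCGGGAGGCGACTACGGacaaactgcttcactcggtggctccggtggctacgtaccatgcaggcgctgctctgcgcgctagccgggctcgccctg
Plac9b and Gm9780: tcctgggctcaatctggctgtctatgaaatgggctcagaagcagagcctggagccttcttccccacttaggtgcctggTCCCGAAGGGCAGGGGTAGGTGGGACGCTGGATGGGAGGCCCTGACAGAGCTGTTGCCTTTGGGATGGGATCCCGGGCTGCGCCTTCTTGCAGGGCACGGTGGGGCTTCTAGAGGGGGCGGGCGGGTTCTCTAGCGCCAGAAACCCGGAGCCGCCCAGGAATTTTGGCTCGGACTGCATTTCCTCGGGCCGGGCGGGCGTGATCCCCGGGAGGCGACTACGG

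The windows are rich in G and C, at 67.7% in Plac9a and 65.0% in both other copies, against a median of 52.7% over 32817 windows of all genes. They hold 26 CpG dinucleotides in Plac9a and 18 in each of the others, against a median of 7. The GC box GGGCGG, counted on both strands with overlaps allowed, was found 4 times in each of the 3 windows, and 35.6% of all windows hold at least 1. The TATA box TATAAA (13.6% of all windows), the CCAAT box CCAAT (37.4%) and the E-box CAGCTG (16.3%) had 0 matches in any copy. These are matches of letters in a window and were not tied to the measurements.

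Plac9 RNA was about 6-fold higher in KO muscle by RPKM. The table holds RPKM, read numbers scaled to gene length and library total, which allow levels of genes of different length to be set side by side. Summed over the 3 copies, the level was 22.7, 23.9 and 21.8 RPKM in KO replicates 1, 2 and 3, against 4.87, 2.86 and 3.68 RPKM in WT replicates 2, 3 and 4. Every KO library lay above every WT library, and the lowest KO value was 4.48 times the highest WT value. The means were 22.8 ± 1.01 RPKM in KO and 3.80 ± 1.01 RPKM in WT (SD, n = 3 each), a ratio of 5.99. The SD was 1.01 RPKM in both genotypes, so relative to the mean the spread was smaller in KO, with a coefficient of variation of 4.44% in KO and 26.7% in WT. In the ranking of mean levels, 935 of 11810 other genes stood above the Plac9 sum in KO muscle, and 3795 did so in WT muscle.

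On the log2(RPKM + 1) scale used for all genes, the sum differed by 2.33 between KO and WT. Library medians were lower in KO than in WT by 0.10 on that scale (a shift of -0.10), and with medians made equal the difference of the sum was 2.43. Only 1 of 7571 other tested genes had a larger positive difference than the sum, the mitochondrial transfer RNA gene mt-Tg, named here after its values were seen. It read 32.5, 39.7 and 29.1 RPKM in KO replicates 1, 2 and 3, against 0.422, 0 and 0.673 RPKM in WT replicates 2, 3 and 4.

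Plac9b held most of the signal as counted. Of its 50-base stretches 44 occur in neither other copy, against 8 for Gm9780 and 6 for Plac9a. How far the split among the copies follows these stretches was not tested. Its level was 16.1, 16.5 and 15.2 RPKM in KO replicates 1, 2 and 3, against 3.65, 2.01 and 2.62 RPKM in WT replicates 2, 3 and 4. The means were 15.9 ± 0.652 RPKM in KO and 2.76 ± 0.829 RPKM in WT (SD, n = 3 each), a ratio of 5.77, and the groups did not overlap.

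Gm9780 was next in level. Its symbol is a provisional one, and RefSeq lists Plac9 as a synonym for it as for both other copies. It read 5.34, 5.50 and 5.19 RPKM in KO replicates 1, 2 and 3, against 1.07, 0.656 and 0.795 RPKM in WT replicates 2, 3 and 4. The ratio of the means was 6.35, and among the WT libraries replicate 2 was highest and replicate 3 lowest, as for Plac9b.

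Plac9a had the lowest level. It read 1.25, 1.87 and 1.44 RPKM in KO replicates 1, 2 and 3, against 0.152, 0.194 and 0.265 RPKM in WT replicates 2, 3 and 4. The means, 1.52 ± 0.318 RPKM in KO and 0.204 ± 0.0572 RPKM in WT (SD, n = 3 each), gave a ratio of 7.48. Here WT replicate 4 was highest and replicate 2 lowest, unlike both other copies. On the log2(RPKM + 1) scale the differences were 1.06 for Plac9a, 1.79 for Gm9780 and 2.19 for Plac9b, the reverse of the order of the ratios, because the added 1 weighs most on the lowest levels. The authors' deposited table gives log2 fold changes of 2.58 for Plac9a, 2.33 for Gm9780 and 2.21 for Plac9b, in the order of the ratios. Each is lower than the log2 of the RPKM ratio of the same copy, for a reason that was not tested.

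**Figure D1:**
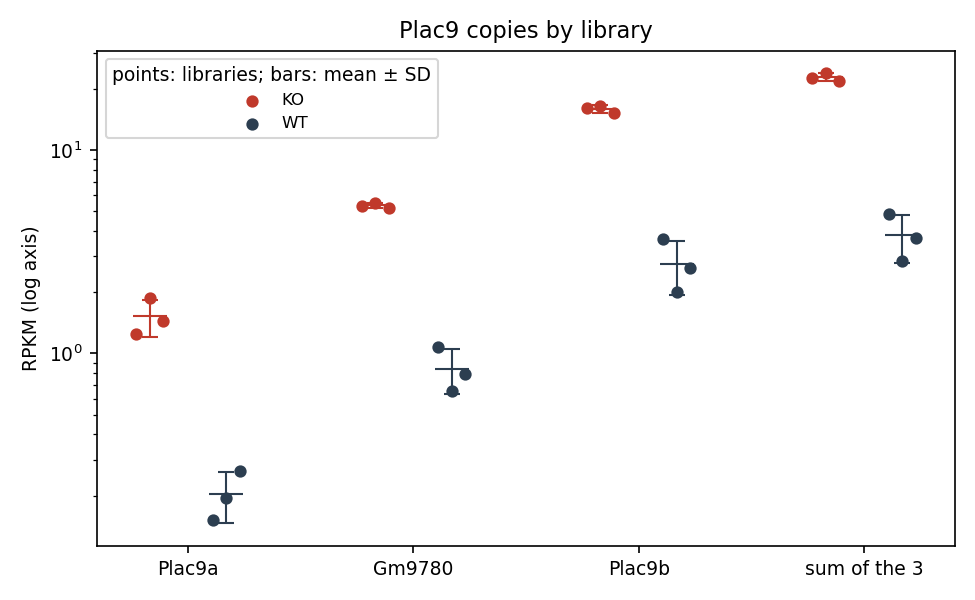
RPKM of Plac9a, Gm9780, Plac9b and their sum on a log axis, with a point for each library and the mean ± SD of 3 libraries, KO left of WT. In each column all KO points lie above all WT points, and for the sum the KO libraries lie between 21.8 and 23.9 and the WT libraries between 2.86 and 4.87.

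Genes entered the fit over all genes when they reached 1 RPKM in at least 3 libraries, and all 3 copies passed. Plac9a passed through the 3 KO libraries alone, with 0 WT libraries at 1 RPKM, so for it a difference was a condition of passing. Gm9780 reached the limit in 3 KO libraries and 1 WT library, and Plac9b in all 6. In that fit 17.3% of 7574 tested genes were called at an adjusted p under 0.05, 3.83% as higher in KO and 13.5% as lower. With library medians made equal, the calls were 602 higher and 665 lower in place of 290 and 1021.

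The reads behind these levels could be counted. RPKM values times the exon length in GENCODE M21 and a library total came out as whole reads, within 0.02 of a read in all 6 libraries, for 80.4% of the 11482 genes with such a length. For the rest the smallest length that gave whole reads was taken, which fixes their wholeness, and reads were had in this way for 11814 of 11815 genes. The library totals were 54370181 to 69693905 reads. Plac9b had 1417, 1175 and 1192 reads in KO replicates 1, 2 and 3, against 326, 140 and 220 reads in WT replicates 2, 3 and 4. Gm9780 had 514, 429 and 445 reads in the KO libraries, against 105, 50 and 73 reads in the WT libraries. Plac9a had 114, 138 and 117 reads in the KO libraries, against 14, 14 and 23 reads in the WT libraries. Counting error alone is thus wide for Plac9a in WT muscle, with an exact 95% Poisson interval of 7.65 to 23.5 reads around 14. For the sum it is narrow beside the difference, at 1957 to 2136 reads around 2045 in KO replicate 1 and 177 to 234 reads around 204 in WT replicate 3. These intervals cover counting error only. The length behind the RPKM was 1402 bases for Gm9780 and 1282 for Plac9b, the annotated exon lengths of GENCODE M21. For Plac9a it was 1325 bases, inferred from the values, against 1751 annotated there, so its reads rest on that inference.

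In each library Plac9b took the largest share of the reads as counted, Gm9780 the next and Plac9a the smallest. Plac9b took 69.3%, 67.5% and 68.0% of the reads of the 3 copies in KO replicates 1, 2 and 3, against 73.3%, 68.6% and 69.6% in WT replicates 2, 3 and 4. Its exact (Clopper-Pearson) 95% intervals ran from 65.2% to 71.3% over the KO libraries and from 61.8% to 77.3% over the WT libraries. Gm9780 took 24.6% to 25.4% in KO and 23.1% to 24.5% in WT, and Plac9a 5.57% to 7.92% in KO and 3.15% to 7.28% in WT. As a share of summed RPKM, Plac9b averaged 69.9% ± 0.958 in KO and 72.1% ± 2.42 in WT (SD, n = 3 each), and this difference of -2.22 percentage points was smaller than the SD among the WT libraries. WT replicate 2 stood apart from the other libraries in the ratio of Plac9b to Plac9a, at 23.3 by reads, against 8.51 to 12.4 in the KO libraries and 9.57 and 10.0 in the other WT libraries. That ratio rests on 14 Plac9a reads. The Plac9a share in this library was 3.15% (exact 95% interval 1.73% to 5.22%). Its interval overlapped those of WT replicate 3 (3.80% to 11.2%), WT replicate 4 (4.67% to 10.7%) and KO replicate 1 (4.62% to 6.66%). The intervals were 6.70% to 9.29% in KO replicate 2 and 5.55% to 7.94% in KO replicate 3. WT replicate 2 was singled out after its values were seen. These intervals cover counting error only, not the assignment of shared reads to a copy, and test no difference between genotypes.

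**Figure D2:**
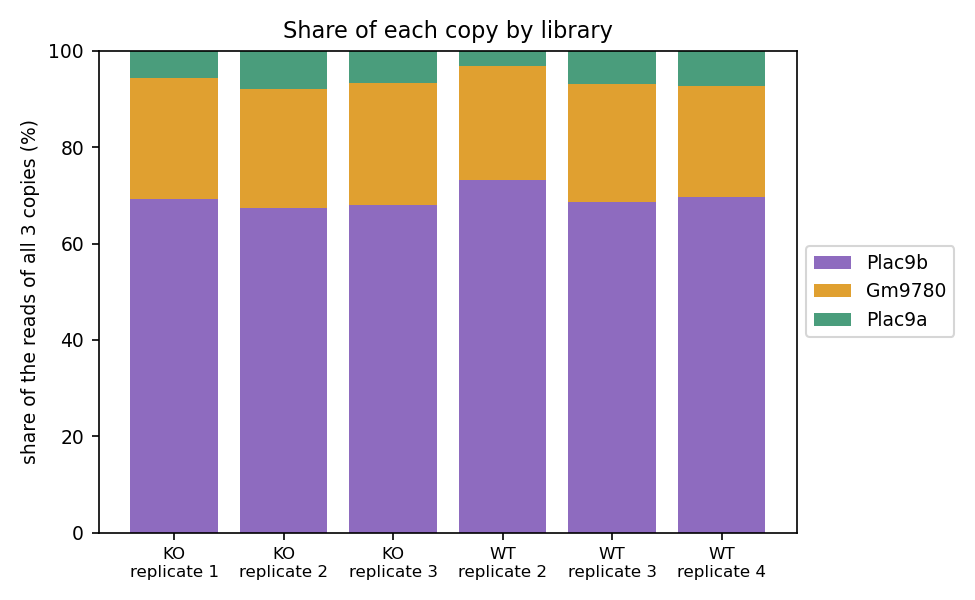
Share in percent of the reads of all 3 copies that was counted to Plac9b, Gm9780 and Plac9a, in stacked bars for the 3 KO and the 3 WT libraries. Plac9b makes up 67.5% to 69.3% of each KO bar and 68.6% to 73.3% of each WT bar.

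No tested gene near the Plac9 copies came close to their difference. The repeated stretch also holds the families Tmem254 (transmembrane proteins), Duxbl and Cphx (homeobox proteins), and of their 9 listed genes 0 were analysed here. GENCODE M21 places 60 other genes within 1 Mb of the copies, of which 12 were analysed and 7 tested in limma. None of the 7 was called higher in KO, against 3.83% of all tested genes, and 1 was called lower, against 13.5%. At an unadjusted p under 0.05 there were 1 higher and 2 lower, and limma-voom on the recovered reads called 0 higher and 1 lower. The median difference of the 7 was -0.04 on the log2 scale, with 3 above 0, against -0.09 over all tested genes.

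Anxa11, the gene of the calcium-binding protein annexin A11, is the nearest measured neighbour on the low side and ends 702 bases from Plac9a, on the opposite strand. It read 10.5, 11.1 and 11.6 RPKM in KO replicates 1, 2 and 3, against 14.8, 14.4 and 12.4 RPKM in WT replicates 2, 3 and 4. All KO values lay below all WT values, and the difference of -0.30 (SE 0.09) on the log2 scale did not pass (limma adjusted p = 0.0543). It passed without WT replicate 4 (adjusted p = 0.0201).

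The called neighbour was Zcchc24, a zinc finger gene 118467 bases away from the nearest end of Plac9a. It read 2.85, 3.19 and 3.76 RPKM in KO replicates 1, 2 and 3, against 6.42, 5.42 and 4.47 RPKM in WT replicates 2, 3 and 4, a difference of -0.59 (SE 0.13, limma adjusted p = 0.0205). Its call ended without KO replicate 1 (adjusted p = 0.0774), KO replicate 2 (0.0642) or WT replicate 3 (0.0624). On the other side of the copies the nearest measured gene was Slmap, a membrane protein of muscle and other cells, at 6.11 ± 0.698 RPKM in KO and 7.25 ± 1.33 RPKM in WT (SD, n = 3 each; limma adjusted p = 0.302).

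**Figure D3:**
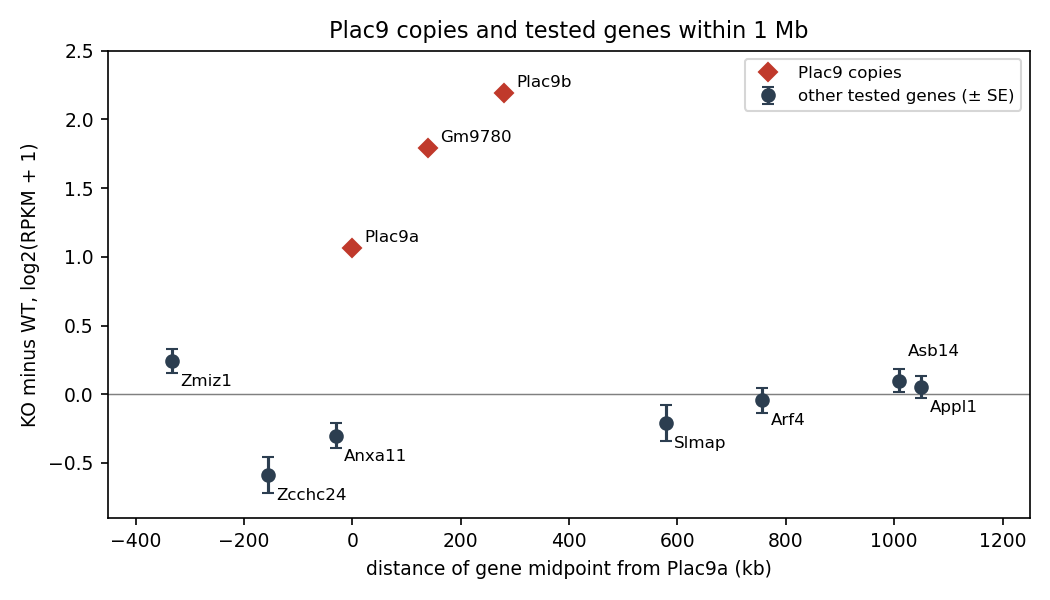
Difference between KO and WT in log2(RPKM + 1) against the distance of each gene's midpoint from that of Plac9a in kb, for the 3 copies (no test) and the 7 other tested genes within 1 Mb (± SE from limma). The copies lie at 1.06, 1.79 and 2.19, and the other genes between -0.59 and 0.24.

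No tested fibroblast marker differed by as much as a Plac9 copy in the same direction. Of 20 listed fibroblast markers 14 were tested, of which 2 rose (against 3.83% of all tested genes) and 1 fell (against 13.5%), with a median difference of 0.15 on the log2 scale against -0.09 over all tested genes. Col3a1, a fibrillar collagen, was at 3.81 ± 0.579 RPKM in KO and 2.48 ± 0.434 RPKM in WT (SD, n = 3 each; difference 0.47, SE 0.12, limma adjusted p = 0.0345). Smoc2, a matricellular protein, was at 6.84 ± 0.638 RPKM in KO and 4.61 ± 0.987 RPKM in WT (difference 0.50, SE 0.13, limma adjusted p = 0.0398). Both calls ended when any 1 library other than WT replicate 2 was left out, with adjusted p of 0.0652 to 0.107 for Col3a1 and 0.0662 to 0.137 for Smoc2. Without WT replicate 2, 6 fibroblast markers were called higher, and without WT replicate 3, 2 were called lower. Apod, a lipid-carrier protein also found in nerve, was at 2.60 ± 0.399 RPKM in KO and 6.61 ± 2.06 RPKM in WT (difference -1.05, SE 0.18, limma adjusted p = 0.00804). The general fibroblast marker Dcn, the proteoglycan decorin, was at 10.0 ± 1.40 RPKM in KO and 8.98 ± 3.20 RPKM in WT (limma adjusted p = 0.573).

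The Plac9 sum was also set beside the summed fibroblast markers. The 19 markers with a value summed to 93.0, 114 and 88.4 RPKM in KO replicates 1, 2 and 3, against 128, 67.6 and 79.7 RPKM in WT replicates 2, 3 and 4, so the groups overlapped. The gene Gsn was the largest part, at 30.3, 40.2 and 31.3 RPKM in these KO libraries and 43.5, 23.5 and 24.4 RPKM in these WT libraries. Within each genotype the order of libraries was the same for the marker sum and for Plac9. KO replicate 2 and WT replicate 2 were highest, and KO replicate 3 and WT replicate 3 lowest. This order was not particular to fibroblast markers. The summed smooth muscle and pericyte markers and the summed macrophage markers had it too, while the Schwann, endothelial, tenocyte and muscle fibre sums did not. Since the mean marker sum was 1.07 times as high in KO as in WT, a share of it differs between genotypes much as Plac9 itself does. The Plac9 sum came to 24.4%, 20.9% and 24.7% of the fibroblast sum in KO replicates 1, 2 and 3, against 3.81%, 4.23% and 4.61% in WT replicates 2, 3 and 4. The means were 23.3% ± 2.14 in KO and 4.22% ± 0.401 in WT (SD, n = 3 each), a ratio of 5.53, and the groups did not overlap.

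Markers of nerve moved the other way. Of 5 tested Schwann cell and nerve markers 4 fell (against 13.5% of all tested genes) and 0 rose. Pmp22, a membrane protein of myelin, was at 2.70 ± 0.504 RPKM in KO and 11.1 ± 2.53 RPKM in WT (SD, n = 3 each; difference -1.70, SE 0.16, limma adjusted p = 0.00136). The myelin genes Prx (difference -1.14) and Mbp (-0.74) also fell. The calls of these 3 genes were kept with each library left out. Of 9 tested endothelial markers 2 fell, the tight junction gene Cldn5 (difference -1.03) and the fatty acid carrier Fabp4 (-0.56), and 0 rose; at an unadjusted p under 0.05 these were 4 and 0. The call of Fabp4 ended without KO replicate 3 (adjusted p = 0.0681). No gene was called in limma among 2 tenocyte, 6 smooth muscle and pericyte and 1 macrophage markers tested, with 0 higher and 1 lower at an unadjusted p under 0.05 and 0 called by limma-voom. With equal library medians, or without WT replicate 2, 1 smooth muscle and pericyte marker was called higher. None of the 6 adipocyte markers was analysed here. All 10 markers of the muscle fibre itself had values and summed to 106605 to 112192 RPKM in KO and 98051 to 105411 RPKM in WT, by far the highest of the lists. Of these, Mb (myoglobin, difference -0.91) and Myh1 (a fast myosin, -1.09) fell. Both calls ended without KO replicate 1 or KO replicate 3, and that of Myh1 also without WT replicate 2 or WT replicate 3, with adjusted p of up to 0.0638 for Mb and 0.0885 for Myh1. The part of these cell types in the Plac9 difference was not tested.

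**Figure D4:**
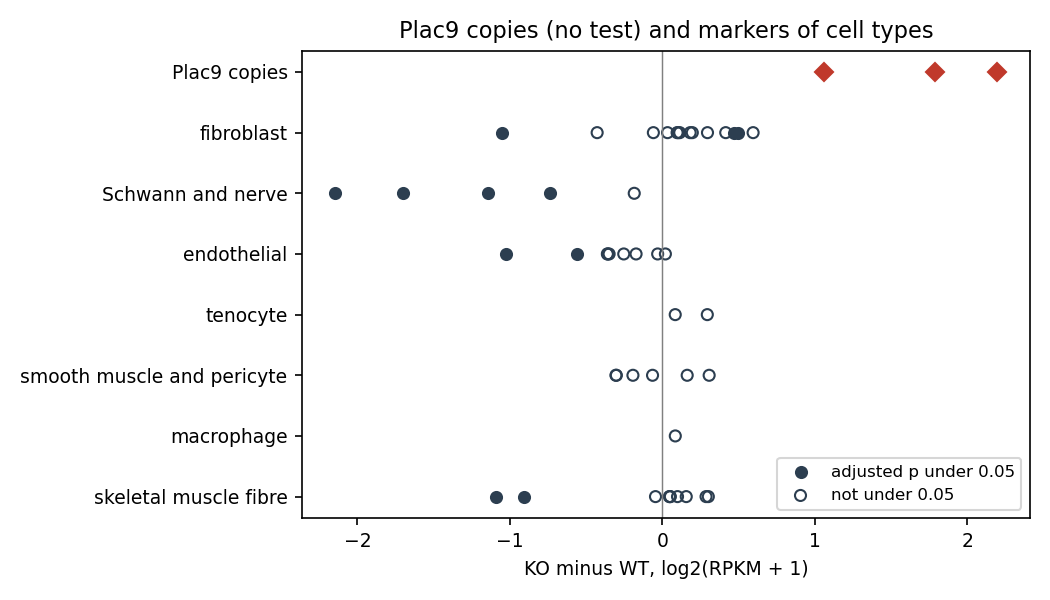
Difference between KO and WT in log2(RPKM + 1) for the 3 Plac9 copies (diamonds, no test) and for each tested marker of 7 tissues or cell types, filled where the limma adjusted p was under 0.05. The copies lie at 1.06 to 2.19, and the tested fibroblast markers between -1.05 and 0.60.

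The genes closest to the Plac9 sum in pattern lay on other chromosomes. Likeness was measured as the root mean square difference over the 6 libraries between log2(RPKM + 1) values, each gene centred on its own mean, and 5 of 7569 other tested genes came within 0.50, against a median of 1.22. They were found by their difference between genotypes, so their own tests add nothing to it. Mir6935, a microRNA gene inside Actg1, was closest (0.24), at 36.0 ± 2.95 RPKM in KO and 7.51 ± 2.57 RPKM in WT (SD, n = 3 each). Gm23419 (0.45) also lies inside Actg1, and Actg1 itself, the gene of cytoplasmic gamma-actin, was among the 5 (0.45), so these 3 on chromosome 11 can share reads and count as 1 pattern. Ppp1r3c, which brings a protein phosphatase to glycogen, came second (0.32), at 362 ± 21.6 RPKM in KO and 110 ± 25.5 RPKM in WT. Gm15833, a processed pseudogene on chromosome 1, was at the same distance (0.32), at 17.6 ± 1.20 RPKM in KO and 4.32 ± 0.495 RPKM in WT. In all 5 genes every KO library lay above every WT library, and in each of them WT replicate 3 was the lowest library, as for the Plac9 sum. As they were picked for likeness over these same libraries, such agreement follows largely from the choice.

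**Figure D5:**
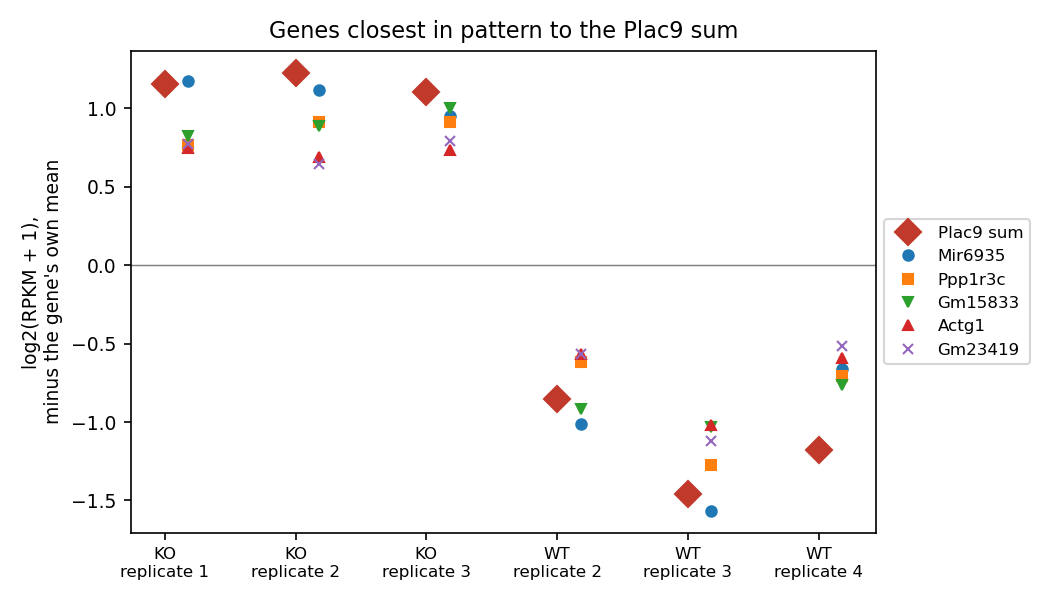
Log2(RPKM + 1) in each library, minus the mean of the gene over the 6 libraries, for the Plac9 sum (diamonds) and the 5 tested genes closest to it. All lie above 0 in the 3 KO libraries and below 0 in the 3 WT libraries, lowest in WT replicate 3.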

How the data were processed

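RNA-seq libraries of gastrocnemius muscle (3 KO, 3 WT) were made from fragmented mRNA with random hexamers, per the labels' protocols. Titles gave genotype and replicate number. The build GRCm39 is named in the submitters' processing notes, while the aligner, counter, annotation and use of strand were not given in the sources used here. The authors deposited 1 value per gene and library, which is RPKM as judged from the values, since for 80.4% of genes its product with annotated length and read total was whole, and the header names none. Their log2 fold change, log2 CPM, F score and p-value and FDR columns are named so per the file headers, and of these only the log2 fold change was used. No value column was left without a sample (0). A pair of rows with the same gene name stayed in the fit, but was left out of rankings by level (11810 other genes) and by likeness (7569).

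The fit over all genes was limma-trend (limma 3.58.1 under R 4.3.3), fitted to log2(RPKM + 1) with 1 term, genotype. A gene entered when 3 or more libraries reached 1 RPKM, and calls were made at 0.05 after Benjamini-Hochberg adjustment. It was tested on simulated data. Fold changes on this scale understate the change of low genes. Libraries of a group differed by more than sampling noise, the chi-square over its degrees of freedom being 25.3 or more in KO and 80.9 or more in WT. Sequence overlaps came from GENCODE M21 transcripts and windows around transcript starts from RefSeq, both GRCm38. Named genes were the copies, called or nearest neighbours within 1 Mb, up to 4 called members of each marker list (decorin added) and the 5 genes most like the Plac9 sum. The copies and lists were chosen with earlier results of these data known. Other calculations used Python 3.11.15 with scipy 1.17.1, numpy 2.4.6 and pandas 2.3.3, and figures matplotlib 3.10.9. The alternatives were another pseudocount, equal library medians, no filter, a replicate block, limma-voom and leaving out each library. lnc-ORA itself was not analysed here. The values of 1 nerve marker are not reported here.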

Additional observations from a re-analysis of the deposited data

How the results depend on the processing

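The difference of the Plac9 sum, 2.33 on the log2(RPKM + 1) scale, lay between 2.18 and 2.48 with each library left out in turn, and between 2.32 and 2.62 under a pseudocount of 0.1, equal library medians, no filter, group medians, recovered reads scaled to library total, the limma-voom scale and replicate number as a block (2.32). The single copies moved by more than their spread with a pseudocount of 0.1 (2.42 for Plac9a, 2.55 for Gm9780, 2.53 for Plac9b) and in limma-voom (2.87, 2.67 and 2.55), scales on which low levels are less compressed. The authors' log2 fold changes (2.58, 2.33 and 2.21) lay below the limma-voom values for each copy, and the reason was not tested. The share difference of Plac9b was -2.27 points by reads and -3.14 to -0.84 with a library left out. Over all genes, 290 higher and 1021 lower calls became 602 and 665 with equal medians, 575 and 1957 at an unadjusted p, 108 and 310 with at least a 1.5-fold change, and 117 to 344 and 354 to 1293 with a library left out. Within 1 Mb the calls were 1 higher with equal medians, 2 lower with the block, and 0 to 1 higher and 0 to 2 lower with a library left out; a window of 250 kb gave the same calls. The fibroblast, Schwann, endothelial and tenocyte markers had 2 higher and 7 lower calls, 0 to 6 and 6 to 8 with a library left out, 3 and 9 with the block, and 2 and 9 with no filter. With the block, 4 endothelial markers and 1 smooth muscle and pericyte marker were called lower and 1 tenocyte marker higher. The cause of these shifts was not tested. The genotypes share only replicate numbers 2 and 3, and nothing in the labels ties them: deviations from the group mean correlated at 0.48 for the libraries numbered 2 and 0.27 for those numbered 3, but also at 0.43 for KO replicate 1 and WT replicate 4, which share no number. The block gave 377 higher and 1171 lower calls, and called Anxa11 (adjusted p = 0.0356). Fits that leave a library out keep at least 2 per group. Negative binomial count tests on the recovered reads were planned as a second count test beside limma-voom and were not run. The families beside the copies gave no value to recompute. Depth limits Plac9a in WT most, at 14 to 23 reads a library.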
